A study of Mus musculus with 4 samples.

Results

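The mitochondrially encoded genes were followed in RNA sequencing counts of L-GMPs, the granulocyte-macrophage progenitor-like cells of a mouse leukemia driven by the fusion oncoprotein MLL-AF9, from secondary recipients. The members are all genes whose mouse symbol begins with mt-, 37 of the 45232 gene identifiers in the count tables: 13 mRNAs, 2 rRNAs and 22 tRNAs. A group labelled Scr was set against a group labelled miR-99 KD, with 2 libraries in each, from cells sorted when the recipients died. How many mice went into a library is not stated in the labels. Both groups carry MLL-AF9, GFP and tdTom and were sorted as positive for c-Kit, Sca-1, CD16/32 and CD34. Neither Scr nor KD is spelled out in the labels, which give no strain, age, promoter or vector and no statement on whether the recipients share 1 primary leukemia. The comparison is of transcripts in the group named for miR-99, a microRNA family, with those in Scr.

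Mitochondria keep a small circular genome of their own. It is copied into long transcripts from both strands, and these are cut apart mostly at the tRNAs that lie between the other genes. The mRNAs encode core subunits of the respiratory chain and the ATP synthase, and the rRNAs and tRNAs serve the mitochondrial ribosome that translates them. Proliferating blood progenitors and myeloid leukemia cells both depend on this system for respiration, and every protein that copies, cuts or modifies its RNA is encoded in the nucleus.

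Gene counts summed to between 38458519 and 42674407 per library. The least deep library, Scr 1, had a count in 28573 genes against 21372 to 24038 in the others, and 51.9 CPM (counts per 1000000 gene counts) in olfactory receptor genes against 4.78 to 15.0 CPM. Of the sort gate, Kit, Cd34, Fcgr3 and Fcgr2b were at 117 CPM or more in each library, while Ly6a, the gene of Sca-1, had 4 to 8 counts, against the Sca-1 positive gate of the labels. Alignments that were not unique took 19.8% and 19.3% of all entries in the Scr samples and 20.1% and 23.6% in miR-99 KD, and they enter no gene count.

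This last category may matter for the mitochondrial genes, because parts of their genome have been copied into the nucleus. On GRCm38, 7 pseudogenes on the minus strand of chromosome 1 (chr1:24611535-24616197) matched mitochondrial mRNAs at 99.71% to 100% identity. They were the copies of the 3' end of mt-Co1 (Gm29216) and of mt-Co2 (Gm28661), mt-Atp6 (Gm10925), mt-Co3 (Gm28437), mt-Nd3 (Gm28438), mt-Nd4l (Gm10222) and the first 876 bases of mt-Nd4 (Gm28439). They lie in mitochondrial order, with the same distances between neighbours as in the mitochondrial genome except for 1 gap (74 bases against 73). Together they run along positions 6390 to 11042 of the mitochondrial genome, a span of 4653 bases. Inside that span lie 6 mRNAs (mt-Co2, mt-Atp8, mt-Atp6, mt-Co3, mt-Nd3 and mt-Nd4l) and 5 tRNAs, while mt-Co1 and mt-Nd4 lie partly in it and 5 mRNAs and both rRNAs lie outside. Between the copies of mt-Co2 and mt-Atp6, where the mitochondrial genome has mt-Atp8, 233 bases hold no annotated copy, and their letters were not read.

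The start of mt-Co2 (chrM:7013-7132, plus strand) is shown first because a read that lies wholly within it matches the nuclear genome equally well. The chromosome 1 copy Gm28661 (chr1:24614885-24615565) has the same letters over 681 aligned bases, while a copy on chromosome 2, Gm13341 (chr2:22587291-22587962), differs at 2 of the 120 bases printed. Capitals mark positions at which the copies and the mitochondrial gene differ.
mt-Co2: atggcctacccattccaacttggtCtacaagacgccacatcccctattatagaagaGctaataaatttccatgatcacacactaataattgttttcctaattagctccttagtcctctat
Gm28661: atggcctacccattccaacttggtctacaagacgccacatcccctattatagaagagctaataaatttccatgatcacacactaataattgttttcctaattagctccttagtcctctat
Gm13341: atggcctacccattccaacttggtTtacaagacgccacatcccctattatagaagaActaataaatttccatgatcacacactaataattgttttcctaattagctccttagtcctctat

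The start of mt-Nd3 (chrM:9459-9539, plus strand) holds the single mismatch with its chromosome 1 copy Gm28438 over 345 aligned bases. The mismatch, marked in capitals, lies within the first 3 bases.
mt-Nd3: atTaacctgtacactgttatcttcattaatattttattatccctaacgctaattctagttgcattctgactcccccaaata
Gm28438: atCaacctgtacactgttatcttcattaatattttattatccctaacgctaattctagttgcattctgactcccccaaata

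The start of mt-Co1 (chrM:5328-5447, plus strand) shows a stretch that differs from its copy at a few bases only. The chromosome 2 pseudogene Gm13340 (chr2:22588103-22589647), 97.605% identical over 1545 bases, differs at 3 of the 120 bases printed, and the chromosome 1 copy begins further into the gene. A read that covers none of these 3 bases cannot be told from Gm13340.
mt-Co1: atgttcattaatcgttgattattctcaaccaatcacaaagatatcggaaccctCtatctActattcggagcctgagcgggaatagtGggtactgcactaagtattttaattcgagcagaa
Gm13340: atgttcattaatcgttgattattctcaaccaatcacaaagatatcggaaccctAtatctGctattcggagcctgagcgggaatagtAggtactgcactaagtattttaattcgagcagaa

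In mt-Nd4 the chromosome 1 copy ends inside the gene. The stretch from base 817 to base 936 (chrM:10983-11102, plus strand) crosses that edge, with the bases after the end of the copy in capitals.
mt-Nd4: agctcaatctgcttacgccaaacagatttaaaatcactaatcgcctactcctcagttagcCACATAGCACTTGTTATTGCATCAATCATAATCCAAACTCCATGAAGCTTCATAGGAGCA

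Levels of the mRNAs per length followed this layout, as the plot of levels in gene order shows. On the scale of CPM per kb of gene, the 6 mRNAs inside the span ran from 0.0804 to 11.5 over the 4 libraries. The 7 mRNAs outside or partly inside it ran from 117 (mt-Nd2 in Scr 2) to 2305 (mt-Co1 in miR-99 KD 2). The groups of genes did not overlap in any library. In the transcripts of GENCODE M21, under 3% of the 50-base windows of mt-Co2, mt-Atp6, mt-Co3, mt-Nd3 and mt-Nd4l were absent from nuclear transcripts, against 37.8% in mt-Nd4, 48.9% in mt-Co1 and 91.8% to 100% in the 5 mRNAs outside the span. The count of 5 such mRNAs was the same with windows of 36 or 100 bases, lengths chosen after seeing the data. In mt-Atp8 all 50-base windows were absent from annotated nuclear transcripts, although its level was 1.52 to 1.96 CPM per kb. The labels give no read length. How much of the low level inside the span comes from reads without a unique place was not tested, so levels of these 6 genes are not estimates of their abundance. Levels of mt-Co1 and mt-Nd4 per length of gene are limited in the same way. Per kb of windows absent from nuclear transcripts, mt-Co1 was at 2507 to 4872 CPM, against 1186 to 2305 CPM per kb of gene. For mt-Nd4 the values were 352 to 644 against 128 to 235 CPM.

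**Figure D1:**
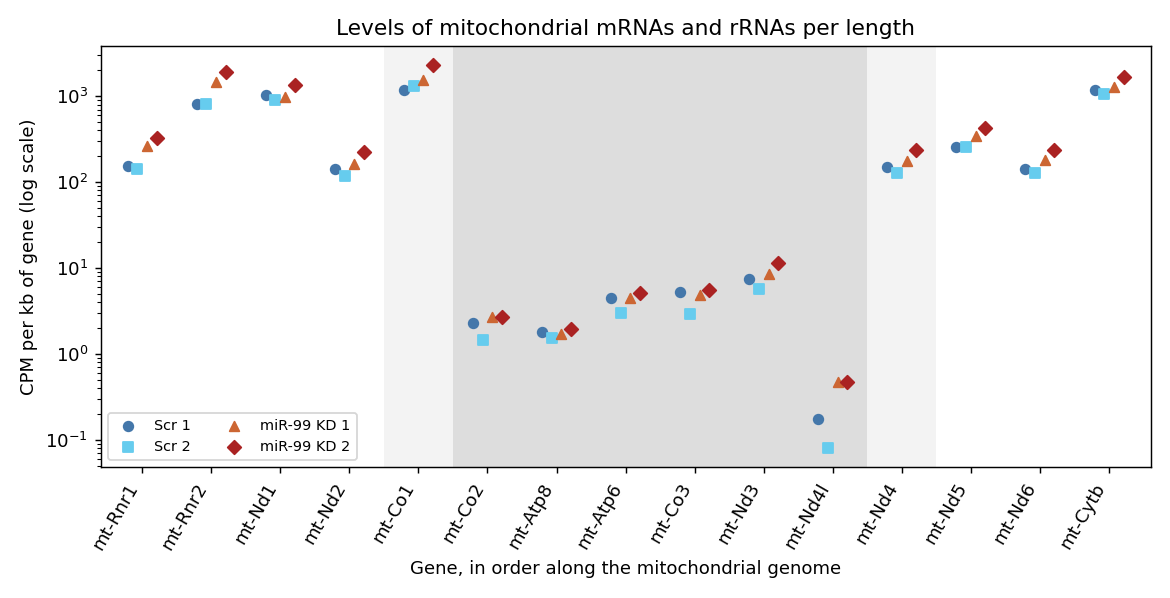
Level of each mitochondrial mRNA and rRNA in CPM per kb of gene (log axis) against the genes in their order along the mitochondrial genome, 1 point per library. Dark shading marks the 6 mRNAs inside the span that is copied on chromosome 1, which sit at or below 11.5 CPM per kb, and light shading marks mt-Co1 and mt-Nd4, which lie partly in it.

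The copies themselves had few counts. Of 17 annotated pseudogenes in the count tables with an aligned stretch, 10 had at most 8 counts in any library. Gm10925 had 130 and 75 counts in the Scr samples and 113 and 110 in miR-99 KD, beside 116 and 85, and 129 and 147 for mt-Atp6. Gm28437 had 114 and 74, and 139 and 172 counts, beside 157 and 97, and 162 and 184 for mt-Co3. In both pairs an mRNA and its identical copy had counts of similar size. Gm28661 had 50, 42, 46 and 48 counts in Scr 1, Scr 2, miR-99 KD 1 and miR-99 KD 2. In the same order mt-Co2, which it matches over 681 bases, had 61, 42, 79 and 78. Gm10222, identical to mt-Nd4l over 294 bases, had 0, 0, 0 and 3 counts beside 2, 1, 6 and 6. Gm28438, which differs from mt-Nd3 at 1 of 345 bases, had 6, 1, 5 and 2 counts beside 99, 84, 126 and 170. Similar counts were thus not found for every copy, identical or not, and the reason was not tested. In that order Gm29216 had 40, 40, 57 and 64, Gm13341 had 35, 25, 31 and 40, and Gm28439 had 7, 3, 10 and 3. Gm13340, the full-length copy of mt-Co1, had 94, 102, 119 and 180. All 17 summed to 488 and 373 counts in the Scr samples and 532 and 641 in miR-99 KD, 0.130% to 0.195% of the counts of the mitochondrial genes.

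Together the 37 genes held a larger share of counts in both miR-99 KD libraries than in either Scr library. The share was 0.650% and 0.637% for the Scr libraries, and for the miR-99 KD libraries it was 0.853% (replicate 1) and 1.16% (replicate 2), a mean of 0.643% ± 0.00951 (SD, n = 2) against 1.0045% ± 0.215. The 95% Wilson intervals of single libraries, which cover counting error only, were no wider than 1.153% to 1.160%, so counting error is small beside the difference between the miR-99 KD libraries. The ratio of the group means was 1.56, a log2 ratio of 0.64, and 0.41 without miR-99 KD 2. In this design an exact permutation test of a single value cannot give a two-sided p below 0.333. Nothing says that the libraries of a group came from separate mice, so errors and p-values measure only the spread between these libraries, which may be technical. In bulk RNA, fewer cells of a type and less RNA per cell cannot be told apart.

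The ratio between groups was larger for the rRNAs than for the mRNAs. The rRNAs held 0.144% and 0.143% of counts in the Scr samples and 0.258% and 0.330% in miR-99 KD, a ratio of means of 2.05 (log2 ratio 1.04). The mRNAs held 0.506% and 0.494% in the Scr samples and 0.594% and 0.826% in miR-99 KD, a ratio of 1.42 (log2 ratio 0.51, and 0.25 without miR-99 KD 2). Within the mitochondrial counts, the rRNAs took 22.1% and 22.5% in the Scr samples and 30.3% and 28.5% in miR-99 KD. The Scr libraries lay close together in each of these shares, and the miR-99 KD libraries lay apart from each other and above them, as the bars of shares show.

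**Figure D2:**
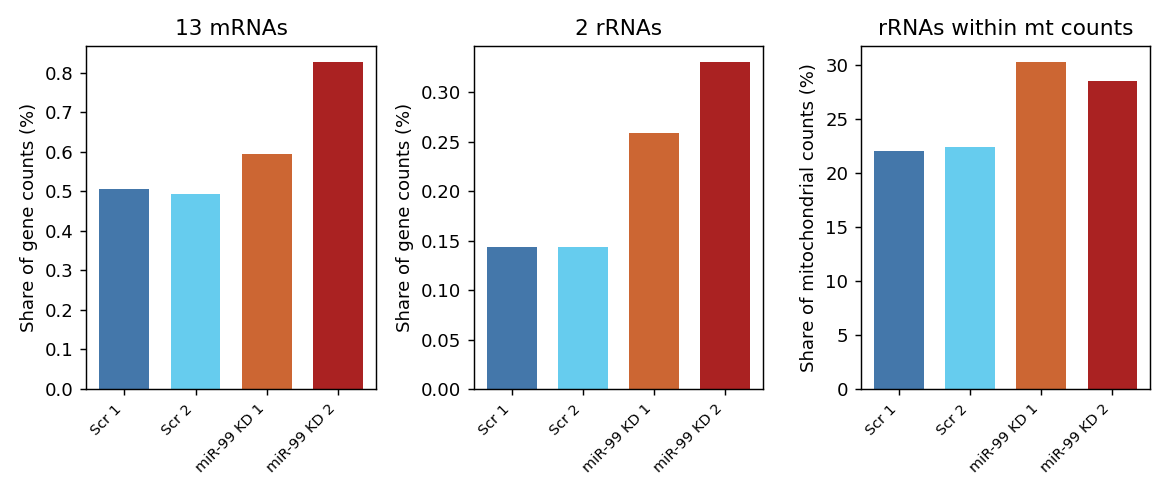
Share of all gene counts held by the 13 mitochondrial mRNAs (left) and the 2 rRNAs (middle), and share of the mitochondrial counts held by the rRNAs (right), in percent, 1 bar per library. The Scr bars are nearly equal in each panel, at 22.1% and 22.5% in the right panel, and both miR-99 KD bars are higher, at 30.3% and 28.5%.

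The rRNA genes encode the RNAs of the mitochondrial ribosome. mt-Rnr2, the large subunit RNA (chrM:1094-2675, plus strand), had 1289 and 1292 CPM in the Scr samples and 2329 and 2990 CPM in miR-99 KD. mt-Rnr1, the small subunit RNA (chrM:70-1024, plus strand), had 147 and 138 CPM in the Scr samples and 252 and 311 CPM in miR-99 KD. In both genes the Scr libraries lay close together and the groups did not overlap. The log2 fold changes were 1.09 ± 0.18 (SE) and 1.04 ± 0.17, with an edgeR adjusted p of 0.421 for each, ranks 102 and 86 by p among 15591 genes tested. DESeq2 gave 1.14 ± 0.29 and 1.08 ± 0.27 with adjusted p of 0.00774 and 0.00762, so the call depends on the tool. Over the alternatives run, the log2 fold change ran from 0.95 to 1.31 for mt-Rnr2 and from 0.93 to 1.23 for mt-Rnr1. Per length, mt-Rnr2 was 5.31 to 5.81 times as high as mt-Rnr1, with groups that overlapped.

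Among annotated nuclear transcripts, no pseudogene with an aligned stretch was found for either rRNA. The nuclear gene Gm20594, annotated as protein-coding, matched mt-Rnr2 at 88.383% over 439 bases, and it had at most 1 count. The stretch of bases 355 to 441 of mt-Rnr2 (chrM:1448-1534, plus strand) is shown because it holds the longest run of A of the rRNAs, in capitals, and the labels do not say how cDNA was primed. The run is 7 bases long, against 5 in mt-Rnr1 and 8 in mt-Nd2.
mt-Rnr2: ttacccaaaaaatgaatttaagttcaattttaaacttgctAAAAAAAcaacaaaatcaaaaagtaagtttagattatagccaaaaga

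Complex I, which takes electrons from NADH, is encoded in part by 7 mitochondrial mRNAs. Where 4 values follow without a group, they stand for Scr 1, Scr 2, miR-99 KD 1 and miR-99 KD 2. mt-Nd5 (chrM:11742-13565) had 471 and 472 CPM in the Scr samples and 621 and 783 CPM in the miR-99 KD samples (log2 fold change 0.62 ± 0.18, edgeR adjusted p 0.580). mt-Nd4 (chrM:10167-11544) had 205 and 177, and 241 and 323 CPM (0.62 ± 0.19, adjusted p 0.595 in edgeR). mt-Nd2 (chrM:3914-4951) had 149 and 121, and 171 and 233 CPM (0.64 ± 0.20, adjusted p 0.602 in edgeR). In these 3 genes both miR-99 KD libraries lay above both Scr libraries, and the gap between the groups was smaller than that between the miR-99 KD libraries. mt-Nd1 (chrM:2751-3707), the mRNA nearest to the rRNAs, had 979 and 874 CPM in the Scr samples and 942 and 1299 CPM in miR-99 KD. Its groups overlapped in CPM, and its log2 fold change was 0.33 ± 0.20 (edgeR adjusted p 0.705).

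mt-Nd6 is the only mitochondrial mRNA on the minus strand (chrM:13552-14070). It had 74.8 and 67.2 CPM in the Scr samples and 93.3 and 121 CPM in miR-99 KD, a log2 fold change of 0.65 ± 0.19 (edgeR adjusted p 0.583). Its ratio to mt-Nd5, the plus-strand neighbour whose end overlaps it by 14 bases, was 0.558 and 0.500 per length in the Scr samples and 0.528 and 0.545 in miR-99 KD. These ratios overlapped, so no difference between the strands was seen here. The labels give no strand setting for the counting, so reads from the opposite strand cannot be told apart.

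mt-Nd3 and mt-Nd4l lie inside the copied span and had low counts. mt-Nd3 (chrM:9459-9806) had 99 and 84 counts in the Scr samples and 126 and 170 in the miR-99 KD samples (log2 fold change 0.66 ± 0.29, edgeR adjusted p 0.659). mt-Nd4l (chrM:9877-10173) had 2 and 1, and 6 and 6 counts, and did not pass the filter on low counts.

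Complex III passes electrons from ubiquinol to cytochrome c, and mt-Cytb (chrM:14145-15288) encodes its cytochrome b. It had 1341 and 1208 CPM in the Scr samples and 1452 and 1928 CPM in the miR-99 KD samples (log2 fold change 0.46 ± 0.18, edgeR adjusted p 0.644). The lower miR-99 KD library was thus close to the higher Scr library.

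Complex IV, cytochrome c oxidase, uses 3 mitochondrial mRNAs. mt-Co1 (chrM:5328-6872) encodes the subunit that holds the site of oxygen reduction, and it had the highest level per length of all members. It had 1832 and 2008 CPM in the Scr samples and 2411 and 3562 CPM in the miR-99 KD samples (log2 fold change 0.68 ± 0.24, edgeR adjusted p 0.621). mt-Co2 (chrM:7013-7696) had 61 and 42 counts, and 79 and 78 counts (0.58 ± 0.33, adjusted p 0.699 in edgeR). mt-Co3 (chrM:8607-9390) had 157 and 97, and 162 and 184 counts (0.41 ± 0.33, adjusted p 0.754 in edgeR), and its CPM values overlapped between groups.

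The ATP synthase subunits mt-Atp6 and mt-Atp8 share 43 bases, and both lie inside the copied span. mt-Atp6 (chrM:7927-8607) had 116 and 85 counts in the Scr samples and 129 and 147 in the miR-99 KD samples (log2 fold change 0.43 ± 0.29, edgeR adjusted p 0.733). mt-Atp8 (chrM:7766-7969) had 14 and 13, and 15 and 17 counts (0.21 ± 0.43, adjusted p 0.892 in edgeR). Reads over shared bases are ambiguous between the 2 genes, a category that took 0.984% to 1.21% of all entries.

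Read together, 16 of the 37 members passed the filter on low counts: 12 mRNAs, both rRNAs and 2 tRNAs. edgeR called 0 of them, as it called 0 of all 15591 genes (0%), and DESeq2 called 2, both rRNAs, with 1.67% called over all genes. At an unadjusted p under 0.05 in edgeR, 7 were higher (mt-Rnr1, mt-Rnr2, mt-Nd2, mt-Nd4, mt-Nd5, mt-Nd6 and mt-Co1) and 0 lower, where all genes gave 2.66% higher and 5.23% lower. After scaling with TMM factors, both miR-99 KD libraries lay above both Scr libraries in 14 of the 16 and below them in 0. Over all genes these shares were 18.9% above and 25.3% below. Of those 14, mt-Nd1, mt-Co3 and mt-Atp8 overlapped between groups in CPM without the factors. A positive log2 fold change was found in 15 of 16, beside 49% of all genes. The median was 0.60 over the 12 mRNAs and −0.01 over all genes tested. The mRNAs and rRNAs are cut from shared long transcripts, so their values are not independent of each other. The plot of fold changes shows that the 12 mRNAs lay between 0.21 and 0.68, with both rRNAs above them.

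**Figure D3:**
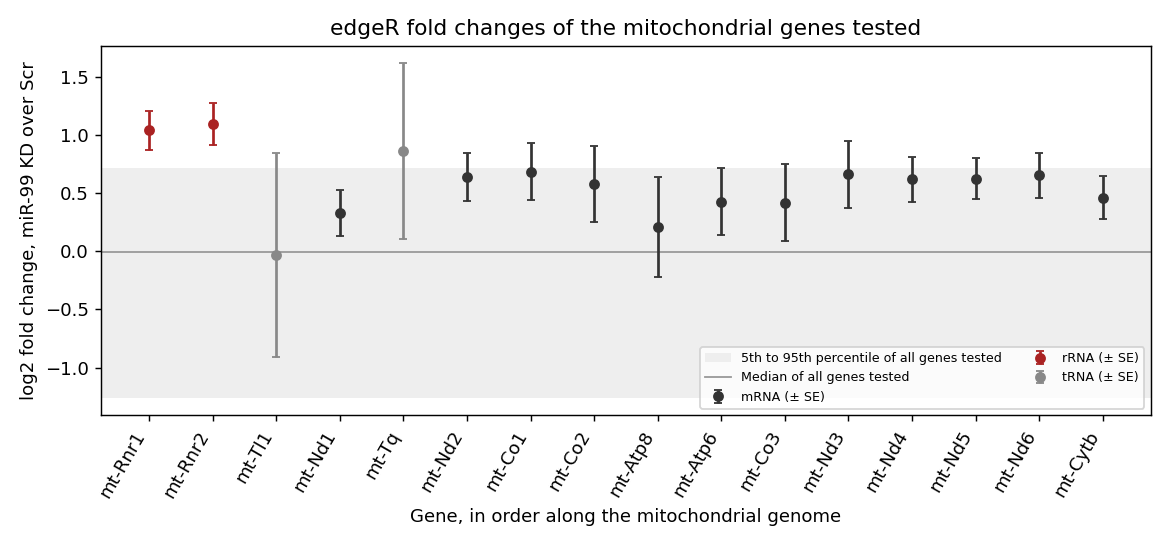
edgeR log2 fold change of miR-99 KD over Scr (vertical axis, ± SE) for the 16 mitochondrial genes tested, in gene order. The mRNAs lie between 0.21 and 0.68, inside the grey band of the 5th to 95th percentile of all genes, and the rRNAs at 1.04 and 1.09 lie above it, as does the tRNA gene mt-Tq at 0.86 with an SE of 0.76.

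Every mRNA tested had a positive fold change in the main fit and in each of 14 other fits, and both rRNAs did too. The rRNA values were above all mRNA values in those fits, except without a filter on low counts, where mt-Nd4l entered the fit. The 5 mRNAs inside the span that were tested had a median of 0.43, the 5 outside it 0.62, and mt-Nd4 and mt-Co1 had 0.62 and 0.68. The inside genes had positive values too, at a small part of the counts, with standard errors of 0.29 to 0.43. Of the 17 annotated nuclear copies 6 were tested, of which 5 were positive, with a median of 0.39. Whether the inside values come from mitochondrial RNA or from copies was not tested. Single libraries moved the mRNA values. mt-Co3 ran from 0.17 without Scr 2 to 0.87 without Scr 1. mt-Nd1, outside the span, ran from 0.13 without miR-99 KD 2 to 0.59 without miR-99 KD 1.

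Ratios between genes of the same library showed where the members parted. Counts of rRNAs over counts of mRNAs were 0.283 and 0.290 in the Scr samples and 0.434 and 0.399 in miR-99 KD. Per length, mt-Rnr2 over mt-Nd1, which directly follows it after 1 tRNA, was 0.797 and 0.894 in the Scr samples and 1.50 and 1.39 in miR-99 KD. mt-Co1 over mt-Nd1 was 1.16 and 1.42 in the Scr samples and 1.58 and 1.70 in miR-99 KD, and mt-Cytb over mt-Nd1 was 1.15 and 1.16 against 1.29 and 1.24. In these 4 ratios the groups did not overlap. The ratios were chosen after the values were seen, and those over mt-Nd1 share its counts. The ratio of mt-Co1 uses its whole length, although only 48.9% of its 50-base windows were absent from nuclear transcripts.

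The tRNAs, which carry amino acids to the mitochondrial ribosome, were nearly absent from these libraries. All 22 together had 32 and 18 counts in the Scr samples and 29 and 40 in miR-99 KD. In 10 of the 22 there were 0 counts in every library, which allows a level of at most 0.0780 CPM in Scr 1, and 10 others had at most 5 counts in any library. They are 59 to 75 bases long, and a read that crosses into a neighbouring gene is ambiguous. The ratio of group means was 1.28, with groups that overlapped, and its log2 value of 0.36 changed sign without Scr 2 (−0.04) and was 0.91 without Scr 1. No difference in tRNAs was detectable at this depth.

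Only the leucine tRNA gene mt-Tl1 (chrM:2676-2750, plus strand), between mt-Rnr2 and mt-Nd1, and the glutamine tRNA gene mt-Tq (chrM:3772-3842, minus strand) reached 10 counts in a library. mt-Tl1 had 10 and 4 counts in the Scr samples and 3 and 11 in the miR-99 KD samples (log2 fold change −0.03 ± 0.88, edgeR adjusted p 0.991). mt-Tq had 12 and 3, and 12 and 16 counts (0.86 ± 0.76, adjusted p 0.765 in edgeR), and its fold change ran from 0.25 without Scr 2 to 2.21 without Scr 1. Counts varied as much within as between groups. Both are printed whole to show how short they are beside the mRNAs. mt-Tl1 ends at the base before mt-Nd1, and capitals in mt-Tq mark 3 bases that overlap the isoleucine tRNA gene mt-Ti.
mt-Tl1: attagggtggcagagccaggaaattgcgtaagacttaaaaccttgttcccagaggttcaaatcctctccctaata
mt-Tq: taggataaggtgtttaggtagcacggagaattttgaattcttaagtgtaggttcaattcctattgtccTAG

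Nuclear genes that copy, cut and modify mitochondrial RNA had fold changes of both signs. Over 10 lists of these and of related nuclear genes, 168 genes were tested, of which 0 passed in edgeR or DESeq2, and 2 were higher at an unadjusted edgeR p under 0.05 and 0 lower, beside 2.66% and 5.23% of all genes. Both miR-99 KD libraries lay above both Scr libraries in 39 of the 168 (23.2%) and below them in 23 (13.7%), beside 18.9% and 25.3% of all genes. That total mixes genes of mitochondrial gene expression with the nuclear subunits given below. Above and below numbered 1 and 2 of 11 for transcription, 6 and 4 of 21 for RNA cutting, stability and decay, and 3 and 8 of 23 for modification. They numbered 3 and 5 of 17 for synthetases, 1 and 2 of 13 for DNA replication and 2 and 1 of 12 for regulators of biogenesis. Of 11 genes of mitochondrial transcription, 6 had a positive and 5 a negative fold change, with a median of 0.03. Polrmt, the mitochondrial RNA polymerase, had 68.7 and 62.3 CPM in the Scr samples and 58.9 and 31.6 CPM in the miR-99 KD samples (log2 fold change −0.47 ± 0.35, edgeR adjusted p 0.742, and −0.05 without miR-99 KD 2). Mterf2, of the mitochondrial termination factor family, had 14.8 and 14.6 CPM against 10.6 and 10.6 CPM (−0.42 ± 0.20, adjusted p 0.668 in edgeR). Tfb1m, which methylates the small rRNA, had 12.7 and 10.6 against 13.5 and 16.8 CPM (0.43 ± 0.22, adjusted p 0.686 in edgeR), and Mterf1b had a log2 fold change of 0.28 ± 0.32.

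Of 21 genes of RNA cutting, stability and decay that were matched, of 22 listed, 15 were positive and 6 negative, with a median of 0.09. Rexo2, an exonuclease that clears short RNA fragments in mitochondria, had 38.6 and 55.3 CPM in the Scr samples and 82.6 and 85.7 CPM in the miR-99 KD samples (log2 fold change 0.88 ± 0.27, edgeR adjusted p 0.595). It was 1 of the 2 nuclear genes with an unadjusted p under 0.05, at 0.0282, and its groups did not overlap. The RNA-degrading phosphorylase Pnpt1 had 0.23 ± 0.16, and in the other direction Tbrg4 had −0.36 ± 0.19 and Ptcd1 −0.29 ± 0.22.

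Modification enzymes of rRNA and tRNA had a median of −0.07 over 23 genes, with 10 positive and 13 negative. The tRNA enzyme gene Mto1 (0.44 ± 0.26), the rRNA methyltransferase Mrm2 (0.24 ± 0.22), the tRNA enzyme gene Osgepl1 (−0.33 ± 0.17) and the large-subunit assembly and rRNA methylation factor Nsun4 (−0.31 ± 0.20) had the smallest p in each direction. The 17 mitochondrial aminoacyl-tRNA synthetases, which charge the tRNAs, had a median of −0.06, with 8 positive and 9 negative. Lars2, the leucyl enzyme, had 409 and 398 CPM in the Scr samples and 471 and 518 CPM in the miR-99 KD libraries (0.35 ± 0.14, edgeR adjusted p 0.655), and Cars2 had 0.55 ± 0.38, Pars2 −0.41 ± 0.23 and Sars2 −0.27 ± 0.18. Cars2 ran from 0.21 without Scr 1 to 1.18 without Scr 2. Genes of mitochondrial DNA replication had a median of 0.02 over 13 of 14 genes listed, from Mgme1 (0.23 ± 0.17) and Dguok (0.25 ± 0.23) to the helicase Twnk (−0.31 ± 0.28) and Primpol (−0.22 ± 0.20).

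Regulators of mitochondrial biogenesis had a median of −0.04 over 12 genes. Ppargc1a, a coactivator that drives biogenesis in other tissues, was near the limit of detection, with 1.40 and 0.382 CPM in the Scr samples and 0.0234 and 0.212 CPM in the miR-99 KD samples (log2 fold change −2.81 ± 1.09, edgeR adjusted p 0.639). That value ran from −1.61 without Scr 1 to −4.95 without miR-99 KD 2. Its relative Pprc1 had −0.27 ± 0.32, the deacetylase gene Sirt1 0.75 ± 0.30, and Tfeb, a regulator of lysosome genes, 0.75 ± 0.33.

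Nuclear subunits of the same complexes had mostly positive values, with medians below that of the mitochondrial mRNAs. The median log2 fold change was 0.21 over 36 genes of complex I, 0.23 over 9 of complex III, 0.32 over 11 of complex IV and 0.31 over 15 of complex V. Their positive members numbered 33, 8, 10 and 15, where 49% of all genes were positive. After TMM scaling, both miR-99 KD libraries lay above both Scr libraries in 10, 2, 4 and 7 genes of these lists. They lay below in 0, 1, 0 and 0 genes, where all genes gave 18.9% above and 25.3% below. The summed CPM of each of the 4 nuclear lists overlapped between the groups, unlike the share of all mitochondrial mRNAs together. Split by complex, the mitochondrial mRNAs of complexes I, III and IV did not overlap. Those of complex V did, at 3.38 and 2.34 CPM in the Scr samples and 3.37 and 3.86 CPM in miR-99 KD. The nuclear list of complex I summed to 3261 and 2583 CPM in the Scr samples and 2780 and 3709 CPM in miR-99 KD. Cox5a, the other nuclear gene with an unadjusted p under 0.05, had 91.8 and 102 CPM in the Scr samples and 124 and 176 CPM in the miR-99 KD libraries (0.67 ± 0.24, edgeR adjusted p 0.621). Those with the next smallest p and a positive value were Ndufa6 (0.46 ± 0.24), Ndufa5 (0.50 ± 0.27), the Rieske protein gene Uqcrfs1 (0.69 ± 0.33), Uqcrc2 (0.31 ± 0.20), Cox8a (0.49 ± 0.22), Atp5g2 (0.54 ± 0.26) and Atp5f1 (0.37 ± 0.21). The negative ones were close to 0, at −0.09 ± 0.20 for Ndufs6, −0.08 ± 0.21 for Ndufab1, −0.08 ± 0.14 for Uqcrc1 and −0.11 ± 0.24 for Cox7c, and complex V had none. Whether mitochondrial and nuclear genes differ in their response was not tested.

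**Figure D4:**
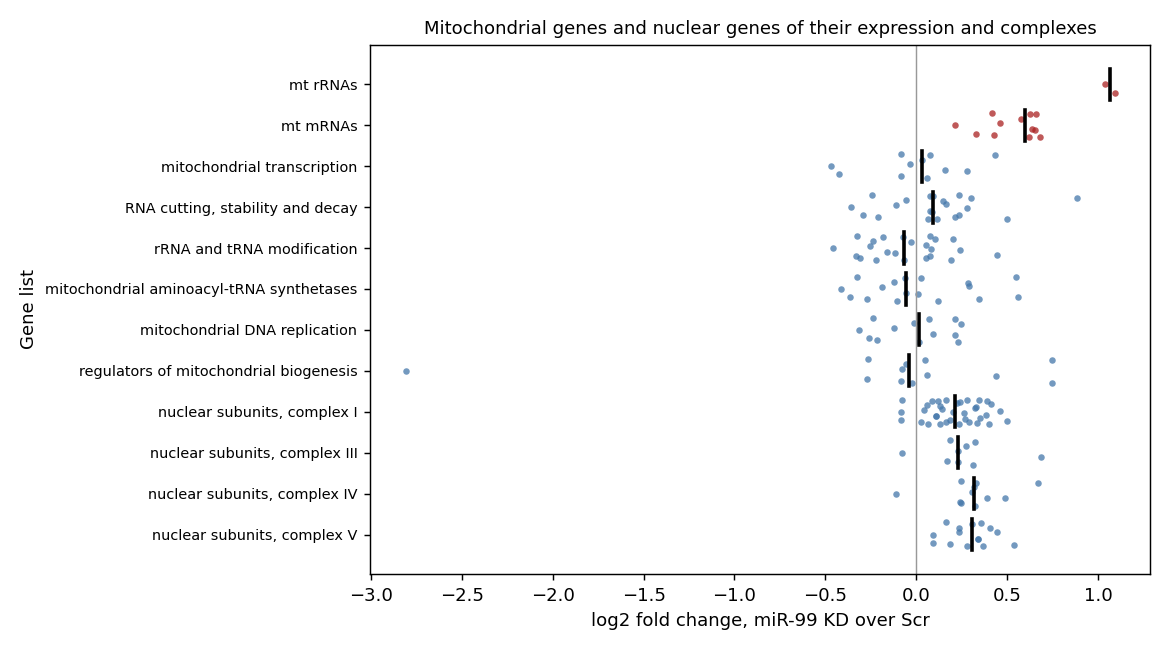
log2 fold change of miR-99 KD over Scr from edgeR (horizontal axis) for each gene tested in the mitochondrial classes (red) and the 10 nuclear lists (blue), 1 point per gene, with the median of each list as a black line. Medians are 0.60 for mitochondrial mRNAs, between −0.07 and 0.09 for the lists of mitochondrial gene expression, and between 0.21 and 0.32 for the nuclear subunits.

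Markers of maturing granulocytes moved in the same direction as the mitochondrial share. Of 15 such genes 14 had a positive fold change, beside 49% of all genes, with a median of 2.15. DESeq2 called 8 of them higher, beside 1.67% of all genes called in either direction, and edgeR called 0. The list summed to 6464 and 4320 CPM in the Scr samples and 11278 and 24853 CPM in miR-99 KD, so that miR-99 KD 2 was highest in both. None of the 15 was at 0 in any library. Monocyte and macrophage markers summed to 1103 and 903 CPM in the Scr samples and 1161 and 1486 CPM in miR-99 KD, with 7 of 11 tested positive. B cell markers summed to 187 and 130 against 205 and 283 CPM, with 2 of 5 tested positive and up to 2 of 9 genes at 0 in a library. Of that sum Ighm alone had 108 and 68.2 against 141 and 194 CPM. The other 3 tested were negative, and the median log2 fold change of the 5 was −0.88. The genes of the sort gate were mixed, with 3 of 4 tested positive and a sum that overlapped between groups. Kit had 453 and 424 against 298 and 232 CPM, a log2 fold change of −0.67, while Fcgr2b had 0.30 and Fcgr3 0.21. Markers of stroma and endothelium went the other way, at 608 and 545 CPM against 352 and 276 CPM, with 6 of 7 tested negative. Of that sum Vcam1 alone had 476 and 430 CPM against 201 and 137 CPM. Pecam1 was the positive one, at 123 and 111 CPM against 149 and 135 CPM. Erythroid, T and NK cell and megakaryocyte sums overlapped, with 5 of 11, 1 of 3 and 1 of 3 tested positive. The T and NK cell sum was 167 and 114 against 151 and 160 CPM, of which Nkg7 had 164 and 112 against 150 and 160 CPM. Klrb1c had 50 and 60 against 11 and 10 counts. After TMM scaling, both miR-99 KD libraries lay below both Scr libraries in 4 of the 11 erythroid genes and above in 1, beside 25.3% and 18.9% of all genes. In these other lists DESeq2 called 1 monocyte and macrophage gene higher, and 1 gene lower in each of the erythroid, T and NK cell, and stroma and endothelium lists. The part of these cells in the mitochondrial share was not tested. Leaving out Scr 1, the library with the olfactory receptor counts, gave a log2 ratio of 0.66 for the whole share and 1.04 for the rRNAs, against 0.64 and 1.04 with it.

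The genes whose pattern over the 4 libraries was most like that of the summed mitochondrial mRNAs, by root mean square distance of centred log2 values, were the kinetochore gene Ndc80, the interferon-induced GTPase gene Ifi47, Gm2199, the ribosomal protein gene Rpl17 and Gm12174. Their distances were 0.0141 to 0.0334. Ndc80 had 68.9 and 67.1 CPM in the Scr samples and 79.0 and 111 CPM in miR-99 KD. This is a description over 4 libraries that share their group structure.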

How the data were processed

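RNA was measured in 4 libraries of sorted cells, 2 per group, extracted with Trizol LS and made by SMARTer amplification, per the labels' protocols. Each deposited file holds raw counts of reads, 1 row per Ensembl identifier, as whole numbers and unequal totals show. The submitters' processing notes name STAR, Picard, HTSeq and DESeq2 and the build mm9, with no versions or roles. Annotation release, strand setting and read length: not given in the sources used here. Entries that name no gene (43.7% to 49.7% of each library) stayed out of library sizes.

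Symbols were matched by identifier (44585 of 45232). Coordinates and sequences come by identifier from GENCODE M21 on GRCm38, and none were converted from mm9. Nuclear copies were found with BLAST+ 2.17.0 among its transcripts (at least 100 bases and 85% identity), so copies outside annotated transcripts are not seen. A window is any run of 50 bases of a transcript.

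The test was edgeR 4.0.16 (R 4.3.3), quasi-likelihood, two-sided, with TMM factors and filterByExpr (minimum count 10). Genes were called at a Benjamini-Hochberg adjusted p under 0.05 over 15591 genes. A check on simulated counts covered the fold changes returned, not the number of genes called. The fit had 2 residual degrees of freedom and a common biological coefficient of variation of 0.320. CPM values use gene count totals. Fold changes are log2 values with SE from the test statistic. DESeq2 1.42.0, limma-voom 3.58.1, other scalings, filters, denominators and left-out libraries were alternatives. Intervals are 95% Wilson, and floors are 3 counts. Since reads were amplified with no molecular identifiers, both cover counting error only.

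The members and lists were chosen with earlier results of these data known. All mitochondrial mRNAs and rRNAs, tRNAs and copies with 10 counts in a library, and the 2 genes per nuclear list and direction with the smallest p are named. Symbols Prorp and Mpv17 were not matched and are not analysed here.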

Additional observations from a re-analysis of the deposited data

How the results depend on the processing

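With 2 libraries a group, the spread rests on 2 residual degrees of freedom, and the counts of genes called move with the tool and scaling. The number of genes called was 0 in edgeR and 261 in DESeq2, 23 with upper-quartile factors, 9 without factors, 9 without a filter on low counts, and 0 to 294 when each library was left out, the highest without Scr 1; the lone library of a group is then assumed to vary like the others. At an unadjusted p under 0.05, edgeR had 414 genes higher and 816 lower. Of the mitochondrial genes, DESeq2 called 2 and every other fit 0. The nuclear lists of mitochondrial gene expression gave 0 in every fit run. The median log2 fold change of the mRNAs ran from 0.43 to 0.76 when each library was left out and was 0.54 to 0.68 in the other fits.

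The log2 ratio of shares ran, when each library was left out, from 0.41 to 0.85 for all mitochondrial genes, from 0.25 to 0.72 for mRNAs, from 0.85 to 1.20 for rRNAs and from −0.039 to 0.91 for tRNAs, the low ends of the first 3 without miR-99 KD 2. Other denominators, or adding the nuclear copies, moved no share by more than the spread between replicates. mt-Tl1 changed sign with DESeq2 size factors (0.0058), without a filter (0.030) and in DESeq2 (0.0056), and ran from −1.17 to 0.83 when each library was left out. In the same way Cox7c ran from −0.24 to 0.17, Ndufab1 from −0.15 to 0.075, Ndufs6 from −0.17 to 0.13, Pprc1 from −0.66 to 0.10 and Uqcrc1 from −0.10 to 0.031. The cause of these changes was not tested.

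With the replicate number as a block, edgeR called 0 genes and 0 mitochondrial genes, with a median of 0.60 for the mRNAs. Nothing in the labels says that the numbers pair samples, and deviations of same-numbered libraries correlated at −0.43 across genes. With the numbers of one group crossed, a pairing chosen after seeing the data, edgeR called 28 genes, 0 of them mitochondrial.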
